A study of Mus musculus with 5 samples.

Results

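The receptors for EGF and FGF and the genes that dampen or relay their signal are described here by 10 genes: the receptors Egfr, Fgfr1, Fgfr2 and Fgfr3, the feedback inhibitors Spry1, Spry2, Spry4 and Dusp6, and the ETS transcription factors Etv4 and Etv5. They were chosen by gene symbol from the 46078 genes of the table deposited for each library, and all 10 were found under 1 Ensembl identifier each. All 10 had a mean of at least 1 TPM (a transcript level that is corrected for gene length and sums to the same total in every library), which was the filter for the tests. The count table, which holds whole reads per gene for only 7599 genes, listed 7 of the 10, without Fgfr1, Fgfr3 and Etv5.

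The cells were neural stem and precursor cells of the subventricular zone, the wall of the lateral ventricle where the adult forebrain keeps its neural stem cells, from adult C57BL/6 mice (C57BL/6j in the study's methods) that carried no mutation. The labels call every mouse female and 5 to 8 weeks old, whereas the study's methods give an older range. Cells were grown as spheres with EGF and FGFb through 2 passages and then plated on poly-D-lysine with EGF and FGFb. The plating medium in the study's methods also holds fetal bovine serum. Every library thus comes from cells held in the ligands of these receptors together with serum. On the day after plating PBS was added as a sham exposure, and RNA was taken 1 h later in 2 libraries (replicates 1 and 2) or 8 h later in 3 libraries (replicates 13, 14 and 15). The methods define a replicate of these cells as 1 animal, and each library is a bulk culture. The values do not separate fewer cells of a type from less RNA per cell. The comparison of 8 h with 1 h asks how the transcripts of this pathway stood at both times after PBS alone, and cells exposed to hydrogen peroxide were not analysed here.

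EGF and FGF bind receptor tyrosine kinases that switch on RAS and the kinases RAF, MEK and ERK. ERK activity induces transcripts of sprouty proteins, which block the pathway below the receptors, and of Dusp6, a phosphatase that removes the activating phosphates from ERK, and it also induces the ETS factors Etv4 and Etv5, so that the levels of these genes are widely read as a record of recent signalling. In the subventricular zone EGFR marks activated stem cells and their rapidly dividing progeny, and EGF together with FGF2 is the standard mitogen mixture for neurospheres.

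Before the members are compared, the libraries themselves need a description. Library identifiers in the labels form 2 number series, with both 1 h libraries and 8 h replicate 14 in series 1 and with 8 h replicates 13 and 15 in series 2. The sources used here do not say what the series denote. Across 13870 genes the Pearson correlation of log2(TPM + 1) was 0.983 to 0.987 within a series and 0.965 to 0.970 between the series, as a description over genes that share each library. Xist, the transcript of the inactive X chromosome, stood at 165 and 200 TPM in series 2 and at most at 0.0611 TPM in series 1, and the Y-linked Eif2s3y stood at 75.6 to 109 TPM in series 1 and at most at 0.0253 TPM in series 2, so the 3 libraries of series 1 go against the label female. The 4 proliferation markers summed to 325 to 371 TPM in series 1 and 728 and 762 TPM in series 2. The 4 astrocyte markers summed to 470 to 601 TPM and 767 and 786 TPM, and Aldh1l1, with a mean of 579 TPM, made up most of that sum. The smooth muscle actin gene Acta2 went the other way, from 75.8 to 114 TPM in series 1 to 11.2 and 15.8 TPM in series 2. All 7 stem and precursor cell markers were present, with Fabp7 at a mean of 8582 TPM, all 5 markers of oligodendrocyte progenitors were present as well, and 0 of 5 microglial markers reached a mean of 1 TPM, with Aif1 and Tmem119 listed at 0. From 13681 to 13967 genes per library reached 1 TPM, and the count columns summed to 13988166 to 18572154 reads. The oligodendrocyte markers summed to 113 to 164 TPM in series 1 and 35.5 and 69.1 TPM in series 2, and the neuroblast and neuron markers to 54.5 to 60.1 TPM and 39.8 and 44.4 TPM. The sum of the ependymal markers divided by time, with 27.3 and 31.8 TPM at 1 h and 19.0 to 20.7 TPM at 8 h. Most of that sum was Foxj1 (mean 19.2 TPM), and 2 of the 4 ependymal markers reached a mean of 1 TPM. Of all genes, 9.43% were lower at 8 h without overlap. The fold changes of the members in TPM are also given with the series as a term and without replicate 14, the only 8 h library in the series of the 1 h libraries, and those of the list genes named for their fold change with the series as a term.

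The promoters of the feedback genes are shown because Spry1 and Spry2 were higher at 8 h without overlap below, Dusp6 divided by library series and Etv5 had the lowest coefficient of variation. The 250 bases ahead of the start were copied from RefSeq (build GRCm38.p6), 5′ to 3′ on the strand of the gene, for 4 genes. Capitals mark TGAATG (or CATTCA on the other strand), a form of the core of the site bound by Capicua, a repressor that ERK releases from DNA. Dusp6 is at chr10:99262981-99263230 (plus strand), Etv5 at chr16:22438369-22438618 (minus strand, the second of its 2 listed starts), Spry1 at chr3:37639697-37639946 (plus strand) and Spry2 at chr14:105896820-105897069 (minus strand).
Dusp6: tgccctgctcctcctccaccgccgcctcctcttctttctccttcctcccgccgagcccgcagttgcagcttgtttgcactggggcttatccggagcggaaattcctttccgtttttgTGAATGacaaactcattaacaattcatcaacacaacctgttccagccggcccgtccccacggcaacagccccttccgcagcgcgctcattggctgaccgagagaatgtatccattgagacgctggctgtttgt
Etv5: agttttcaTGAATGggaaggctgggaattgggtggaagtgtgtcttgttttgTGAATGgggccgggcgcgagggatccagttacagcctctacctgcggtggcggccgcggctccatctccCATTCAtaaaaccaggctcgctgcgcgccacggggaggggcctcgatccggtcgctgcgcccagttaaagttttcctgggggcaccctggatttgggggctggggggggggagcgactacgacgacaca
Spry1: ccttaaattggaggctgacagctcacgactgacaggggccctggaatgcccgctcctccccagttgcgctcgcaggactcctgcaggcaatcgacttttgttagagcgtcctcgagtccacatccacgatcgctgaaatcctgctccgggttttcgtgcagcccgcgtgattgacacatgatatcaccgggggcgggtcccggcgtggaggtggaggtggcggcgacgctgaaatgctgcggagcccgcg
Spry2: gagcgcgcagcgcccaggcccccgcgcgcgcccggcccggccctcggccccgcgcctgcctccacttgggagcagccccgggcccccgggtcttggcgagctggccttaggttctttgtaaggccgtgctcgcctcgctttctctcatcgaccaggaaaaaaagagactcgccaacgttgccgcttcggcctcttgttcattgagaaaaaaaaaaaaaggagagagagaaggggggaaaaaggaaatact

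Dusp6 held 1 TGAATG, which began 133 bases ahead of the start. Etv5 held 3, which began 242, 198 and 129 bases ahead of its second start, the last of them on the other strand, and its first start held 0. Spry1 and Spry2 held 0 copies of the letters TGAATG in this window. Among all 32851 listed promoters 10.9% held TGAATG on either strand in the same window. The fuller letters TGAATGAA and TGAATGGA, both of which contain it, occurred in 1.08% and 1.01% of all promoters. Neither occurred in the windows of the members. Other forms of the Capicua site were not searched, so these counts do not show that a window lacks a site. CCGGAA, a longer form of the GGAA core bound by ETS factors, was held by 12.03% of all promoters and, among the members, by Egfr alone. The shorter GGAA was not searched. In all, 7 of the 10 members had an entry in this table, which lists none for Fgfr1, Spry4 and Etv4. A match of letters is a description and not a measured site, and the data hold no binding assay.

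All 10 genes were well expressed. The mean over the 5 libraries was highest for Etv5 (241 TPM), followed by Spry2 (194), Dusp6 (181), Fgfr1 (134), Egfr (124), Etv4 (115), Spry1 (109), Spry4 (88.7), Fgfr3 (38.4) and Fgfr2 (24.6). Etv5 had the highest and Fgfr2 the lowest TPM of the 10 in each library. The ranges of neighbours in the middle of this order overlapped across libraries, for example Fgfr1 (122 to 164 TPM) and Egfr (98.6 to 157 TPM). Against the 13870 genes with a mean of at least 1 TPM, Etv5 stood at percentile 95.7 and Fgfr2 at percentile 53.7.

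**Figure D1:**
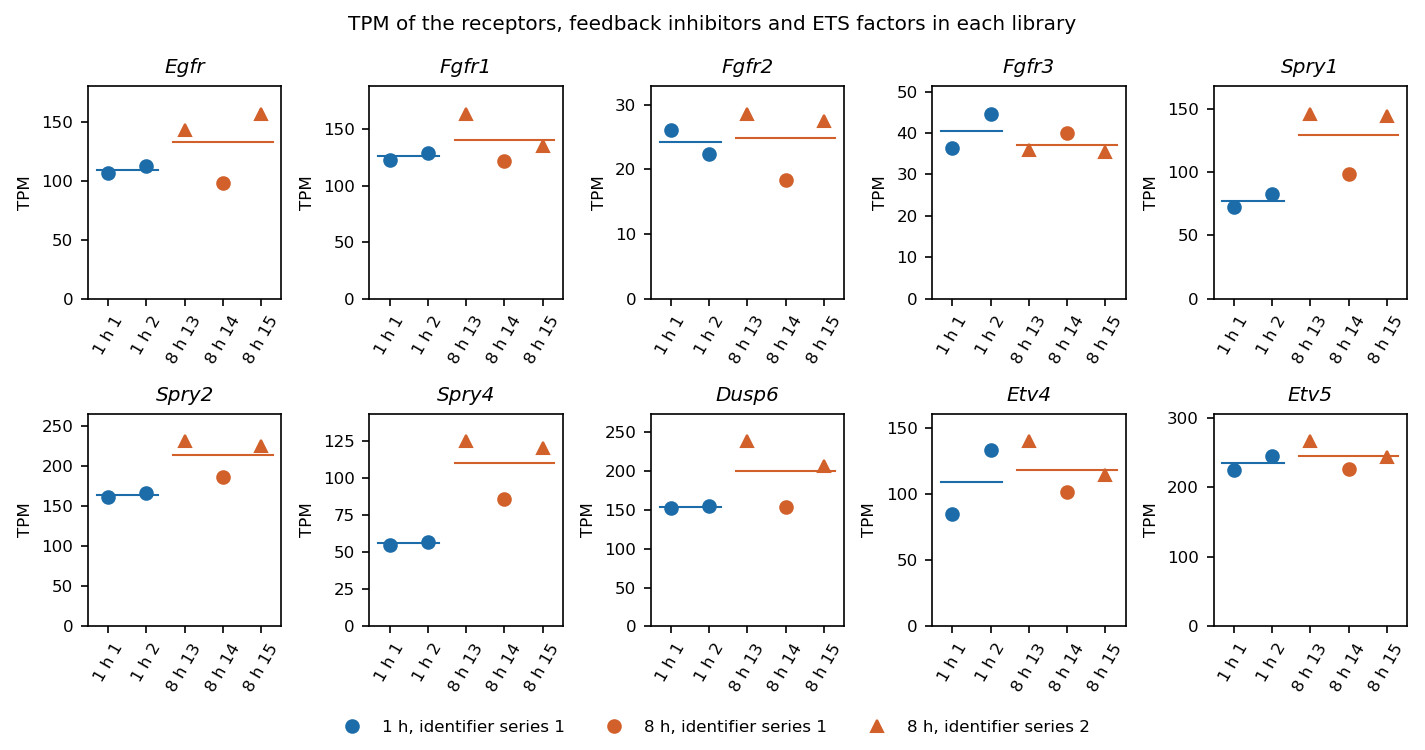
TPM (vertical axis, from 0) of each of the 10 genes in the 5 libraries (horizontal axis, time and replicate number), with 1 h libraries in blue, 8 h libraries in orange, circles for identifier series 1, triangles for identifier series 2 and a line at each group mean. Spry1, Spry2 and Spry4 lie higher in all 3 libraries at 8 h than in either 1 h library, with replicate 14 between the groups, while Dusp6 in replicate 14 lies at the 1 h level.

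None of the 4 receptors passed the test between the times. Egfr (GRCm38 chromosome 11, 16752203 to 16918158, plus strand) had 107 and 113 TPM in replicates 1 and 2 at 1 h, then 144, 98.6 and 157 TPM in replicates 13, 14 and 15 at 8 h. Replicate 14 was the lowest of all 5 and the others at 8 h were the highest, so the groups overlapped. The log2 fold change of TPM + 1, 8 h over 1 h, was 0.25 ± 0.21 (SE; 95% confidence interval -0.25 to 0.75; adjusted p = 0.572, limma over all 13870 genes).

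Fgfr1 (chromosome 8, 25513654 to 25575714, plus strand), an FGF receptor of neural precursors, had 123 and 129 TPM at 1 h, then 164, 122 and 135 TPM at 8 h in the same order of replicates. Replicate 14 again lay under both 1 h libraries. The log2 fold change was 0.14 ± 0.14 (SE; interval -0.20 to 0.49; adjusted p = 0.630). Fgfr2 (chromosome 7, 130162451 to 133123350, minus strand) had 26.1 and 22.4 TPM at 1 h, then 28.6, 18.4 and 27.5 TPM at 8 h, which gave 0.01 ± 0.21 (SE; interval -0.51 to 0.53; adjusted p = 0.986). Its exons share 314 bases with Ctbp2, a corepressor gene on the same strand with a mean of 106 TPM, so that reads in that stretch can belong to either gene. Fgfr3 (chromosome 5, 33721674 to 33737068, plus strand), a receptor found in astrocytes and radial glia, was the only member with a lower mean at 8 h. It had 36.4 and 44.7 TPM at 1 h, then 35.8, 39.9 and 35.4 TPM at 8 h, with a log2 fold change of -0.12 ± 0.13 (SE; interval -0.44 to 0.20; adjusted p = 0.653). The intervals of the 4 receptors all lie within a doubling or halving.

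Within the FGF receptors Fgfr1 held most of the transcripts. Its share of the summed TPM was 66.0% ± 0.354 (SD, n = 2) at 1 h and 69.2% ± 2.24 (SD, n = 3) at 8 h, that of Fgfr3 was 21.2% ± 2.23 and 18.6% ± 3.29, and that of Fgfr2 was 12.8% ± 1.88 and 12.2% ± 1.88. The share of Fgfr1 did not overlap between the times (65.8% and 66.3% against 67.6%, 68.2% and 71.8%), and the other shares did. The difference in the share of Fgfr1, 3.15 percentage points, was 1.87 without replicate 13 and 1.60 in series 1 alone. The fourth receptor, Fgfr4, was listed at 0 in all 5 libraries. The level of Fgfr1 relative to other genes depended on the column read. Its mean per-base coverage, the depth of reads along the gene, was 45.0 to 68.6, against 224 to 363 for Egfr, although the TPM of both genes was alike. Per unit of FPKM, a length-corrected level like TPM, Fgfr1 had 0.209 times the coverage of the median gene, which is percentile 5.96 of 8669 genes with at least 10 TPM in every library. Fgfr3 had 0.365 and Fgfr2 0.556 times the median, whereas Egfr had 1.25 and Dusp6, Spry2 and Spry4 had 1.48 times. The annotation (GENCODE vM21) lists 19 transcripts for Fgfr1, 27 for Fgfr2 and 17 for Fgfr3, against 5 for Egfr, 4 for Dusp6 and 1 each for Spry2 and Spry4, and the part of transcript number in the gap was not tested. By coverage Fgfr1 held 48.7% to 52.4% of the 3 receptors in each library, still the largest share, and Fgfr2 and Fgfr3 held 22.2% to 26.9% and 22.8% to 27.8%.

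The sprouty genes were the members with the largest differences between the times. Spry4 had 54.8 and 57.3 TPM in the 1 h libraries, then 124.9, 85.8 and 121 TPM in replicates 13, 14 and 15 at 8 h. Each of the 3 libraries at 8 h were above both at 1 h, and replicate 14 was the lowest of the 3 and stood at 1.53 times the 1 h mean. The means were 56.0 ± 1.75 TPM (SD, n = 2) and 110 ± 21.5 TPM (SD, n = 3), and the log2 fold change was 0.95 ± 0.18 (SE; interval 0.51 to 1.39). Its adjusted p was 0.262 (limma), so the difference did not pass over all genes tested. Spry4 lies on chromosome 18 (38586268 to 38601268, minus strand).

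Spry1 (chromosome 3, 37639947 to 37644598, plus strand) followed the same order, with 72.4 and 82.7 TPM at 1 h, then 146, 98.4 and 144 TPM at 8 h. The groups did not overlap, and replicate 14 was 1.27 times the 1 h mean. The log2 fold change was 0.71 ± 0.20 (SE; interval 0.23 to 1.19; adjusted p = 0.315). On the opposite strand a transcript without a known function, Gm42922, shares 710 of its exon bases and had a mean of 0.286 TPM.

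Spry2 (chromosome 14, 105891949 to 105896819, minus strand), the most abundant sprouty transcript, had 161 and 166 TPM at 1 h, then 231, 187 and 225 TPM at 8 h. The groups did not overlap either, and the log2 fold change was 0.38 ± 0.12 (SE; interval 0.08 to 0.67; adjusted p = 0.365). Spry3 was listed at 0 in all 5 libraries. Together the sprouty genes summed to 298 ± 12.6 TPM (SD, n = 2) at 1 h and 454 ± 72.5 TPM (SD, n = 3) at 8 h. At 8 h the sum was 371 TPM in replicate 14 and 502 and 490 TPM in replicates 13 and 15. The make-up of the sum also differed between the libraries of the 2 times, and neither the sum nor the shares were tested. Spry4 held 19.0% and 18.7% of the sum at 1 h and 24.9%, 23.1% and 24.6% at 8 h, Spry2 held 55.9% and 54.3% at 1 h and 46.0%, 50.4% and 45.9% at 8 h, and neither share overlapped between the times. The share of Spry1 was 26.0% ± 1.34 at 1 h and 28.4% ± 1.60 at 8 h, with replicate 14 (26.5%) inside the 1 h range.

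**Figure D2:**
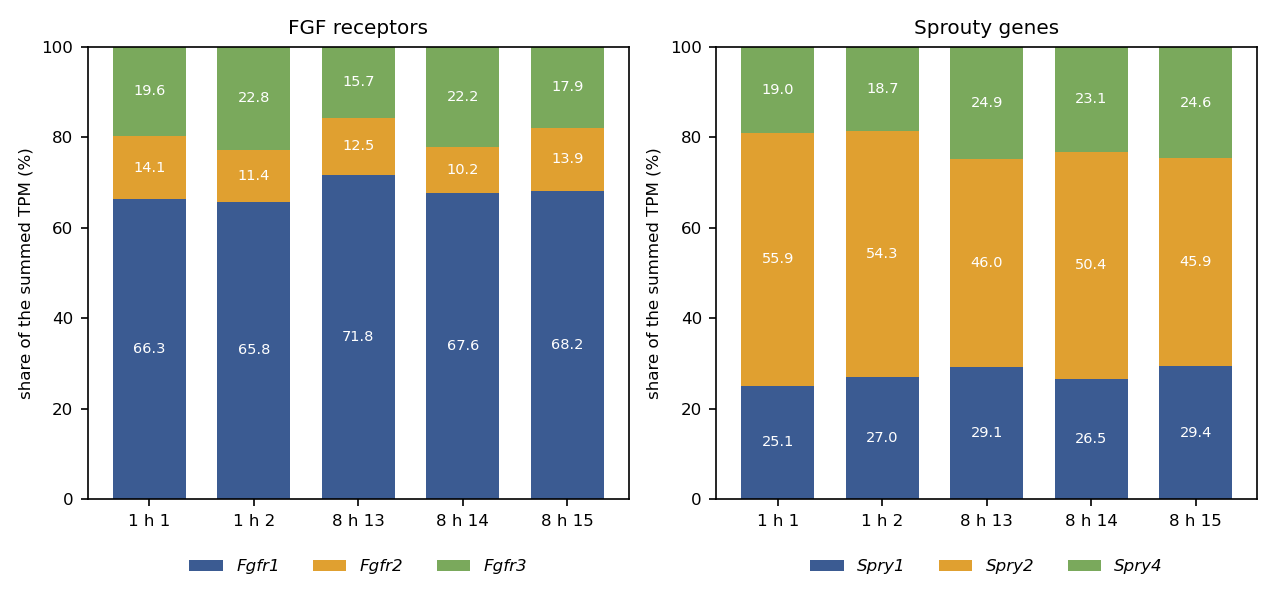
Share (%) of each gene in the summed TPM of the FGF receptors (left) and of the sprouty genes (right) in each of the 5 libraries (horizontal axis, time and replicate number), as stacked bars from 0 with each share printed. Fgfr1 holds 65.8% to 71.8% of the receptor transcripts, and the share of Spry4 is 18.7% to 19.0% at 1 h and 23.1% to 24.9% at 8 h.

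Dusp6 (chromosome 10, 99263231 to 99267488, plus strand) split by library series rather than by time. It had 153 and 155 TPM at 1 h and 154 TPM in 8 h replicate 14, between the 1 h values, against 238 and 207 TPM in 8 h replicates 13 and 15. The log2 fold change was 0.35 ± 0.19 (SE; interval -0.11 to 0.81; adjusted p = 0.453).

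The ETS factors showed no such split. Etv4 (chromosome 11, 101769742 to 101785371, minus strand) had 85.0 and 134 TPM at 1 h, then 140, 101.8 and 114 TPM at 8 h, and the spread between the 1 h libraries alone covered most of its range. The log2 fold change was 0.14 ± 0.23 (SE; adjusted p = 0.767). Etv5 (chromosome 16, 22381309 to 22439719, minus strand) was the steadiest member, with 226 and 245 TPM at 1 h, 266, 226 and 244 TPM at 8 h and a coefficient of variation of 6.94% over all 5. Its log2 fold change was 0.06 ± 0.11 (SE; interval -0.20 to 0.32; adjusted p = 0.800).

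A call needed a log2 fold change beyond 1 in either direction together with an adjusted p no higher than 0.05. None of the 10 members (0 of 10) was called, and 0 of 10 reached the adjusted p alone. The same rule called 6 of 13870 genes (0.0433%). At an unadjusted p under 0.05, 3 of 10 members (the 3 sprouty genes) were higher at 8 h, against 9.52% of all genes. The same 3 were higher at 8 h without overlap of the groups, against 23.7% of all genes, and 0 of 10 were lower without overlap, against 9.43%. The median log2 fold change was 0.20 over the members and 0.10 over all genes tested. Scaling each library by its median ratio moved the median of all genes to -0.00 and that of the members to 0.08, and left Spry4 at 0.83, Spry1 at 0.60 and Spry2 at 0.27.

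With the identifier series as a term, the difference between the times rests on replicate 14 against the 1 h libraries, since series 2 holds no 1 h library. Spry4 was then 0.61 ± 0.11 (SE; interval 0.35 to 0.86; adjusted p = 0.228), Spry1 was 0.34 ± 0.12 (adjusted p = 0.488) and Spry2 was 0.19 ± 0.10 (adjusted p = 0.627). These 3 kept a positive sign. Dusp6 was at 0.00 ± 0.12 and Fgfr3 at -0.01 ± 0.15, and Egfr (-0.15), Fgfr1 (-0.05), Fgfr2 (-0.38), Etv4 (-0.07) and Etv5 (-0.06) had the other sign than in the fit without the term. None of the 10 passed in this fit.

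The series term itself, series 2 over series 1 in the same fit, was 0.60 ± 0.11 for Egfr (SE; adjusted p = 0.0312), 0.56 ± 0.12 for Spry1 (adjusted p = 0.0462) and 0.51 ± 0.11 for Spry4 (adjusted p = 0.0412). These 3 of 10 members were higher in series 2, against 7.44% of all genes. Fgfr2 (0.58 ± 0.14, adjusted p = 0.0610) and Dusp6 (0.52 ± 0.12, adjusted p = 0.0537) had like values and did not pass. Without regard to time, 7 of 10 members were higher in both libraries of series 2 than in the other 3, against 39.8% of all genes, and Fgfr3 was lower, against 13.5%. The sum of the proliferation markers, the astrocyte sum (mostly Aldh1l1) and Xist divided the libraries in the same way. So did the lower sums of the oligodendrocyte and neuroblast markers, and the part of all of these in the values was not tested.

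Without replicate 14 the times and the series divide the libraries alike, so that their effects cannot be told apart. Spry4 was then called (log2 fold change 1.12 ± 0.09, SE; adjusted p = 0.00259), the single member among 568 called genes (4.1%). By the adjusted p alone 5 of 10 members were higher, against 15.7% of all genes: Spry4, Spry1 (0.90, adjusted p = 0.00504), Spry2 (0.47, adjusted p = 0.0149), Dusp6 (0.52, adjusted p = 0.0201) and Egfr (0.45, adjusted p = 0.0240). The other 5 lay between -0.17 (Fgfr3) and 0.25 (Etv4).

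**Figure D3:**
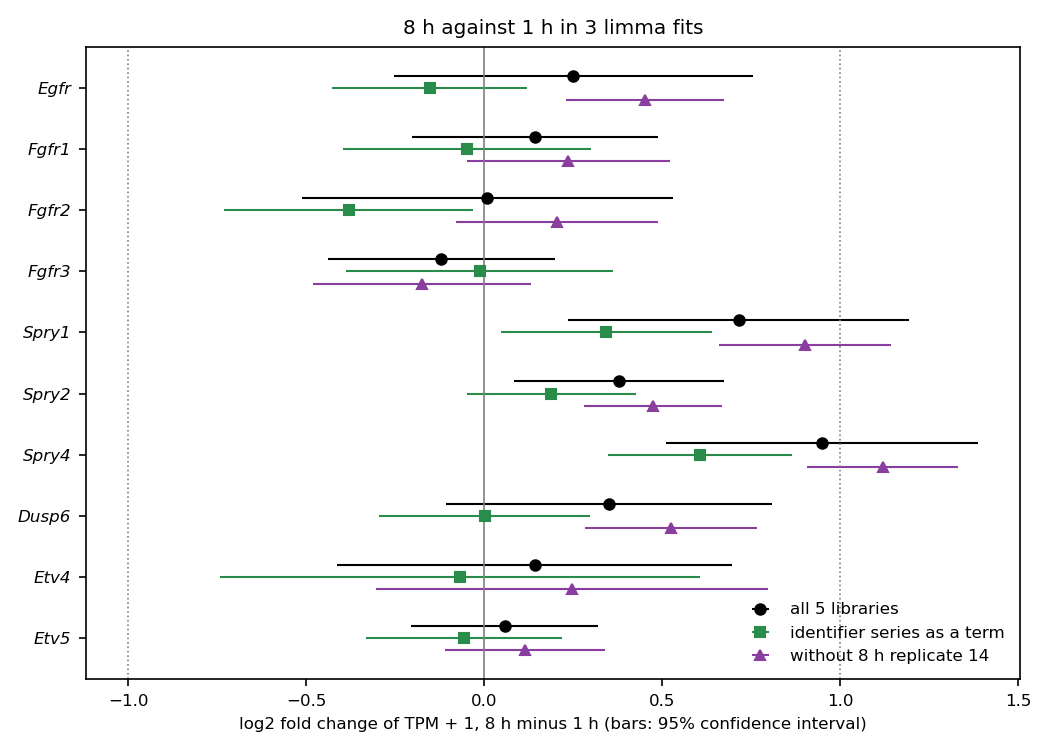
Log2 fold change of TPM + 1, 8 h minus 1 h (horizontal axis), for each of the 10 genes with its 95% confidence interval, in limma fits of all 5 libraries (black circles), with the identifier series as a term (green squares) and without 8 h replicate 14 (purple triangles); dotted lines mark -1 and 1. Spry4 and Spry1 lie to the right of 0 in all 3 fits, with 0.95 and 0.71 in the fit of all libraries, and Dusp6 moves from 0.35 to 0.00 with the series as a term.

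The count table gave a different picture of the same genes, and its 8 h columns did not match the tables they are named after. Column and table were compared over 6860 genes with at least 100 reads in every column, as the share of genes within 0.1 log2 of each other. The 1 h columns matched their own tables (89.3% of genes each). The column named replicate 13 matched the table of replicate 14 (79.1%, and 25.7% for its own), and the column named replicate 15 matched the table of replicate 13 (79.1%, and 42.2% for its own). The column named replicate 14 matched no table closely (at most 41.3%, for 1 h replicate 2), and no column matched the table of replicate 15 above 42.2%. Whether the columns or the tables carry the wrong names was not settled. Columns were used under their names and tables under the samples they were deposited for. If the names of the tables are wrong, the TPM values of replicates 13 to 15 belong to other libraries, and the fits with the series as a term and without replicate 14 turn on another library than the one named.

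In the unmatched column the feedback inhibitors were low. Dusp6 had 306 and 314 CPM (reads scaled to the same column total) in the 1 h columns and 308, 125.1 and 437 CPM in the columns named 13, 14 and 15. Relative to the 1 h mean the unmatched column held 0.403 times as much Dusp6, which was the 4th lowest ratio of 6860 genes. Spry2 stood at 0.477 times (6th lowest), Spry1 at 0.555 times (18th) and Spry4 at 0.601 times (34th). The raw reads behind these values were 1811 for Dusp6, 1762 for Spry2, 1140 for Spry1 and 1610 for Spry4. The receptors and Etv4 did not share this pattern, with 0.870 times the 1 h mean for Egfr, 1.01 times for Fgfr2 and 1.13 times for Etv4. Only 7 of the 6860 genes (0.102%) were under 0.5 times the 1 h mean in that column, and Dusp6 and Spry2 were 2 of them. The column named 13 gave 0.994 times the 1 h mean for Dusp6 and 1.51 times for Spry4, near the 1.00 and 1.53 times of the table of replicate 14.

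**Figure D4:**
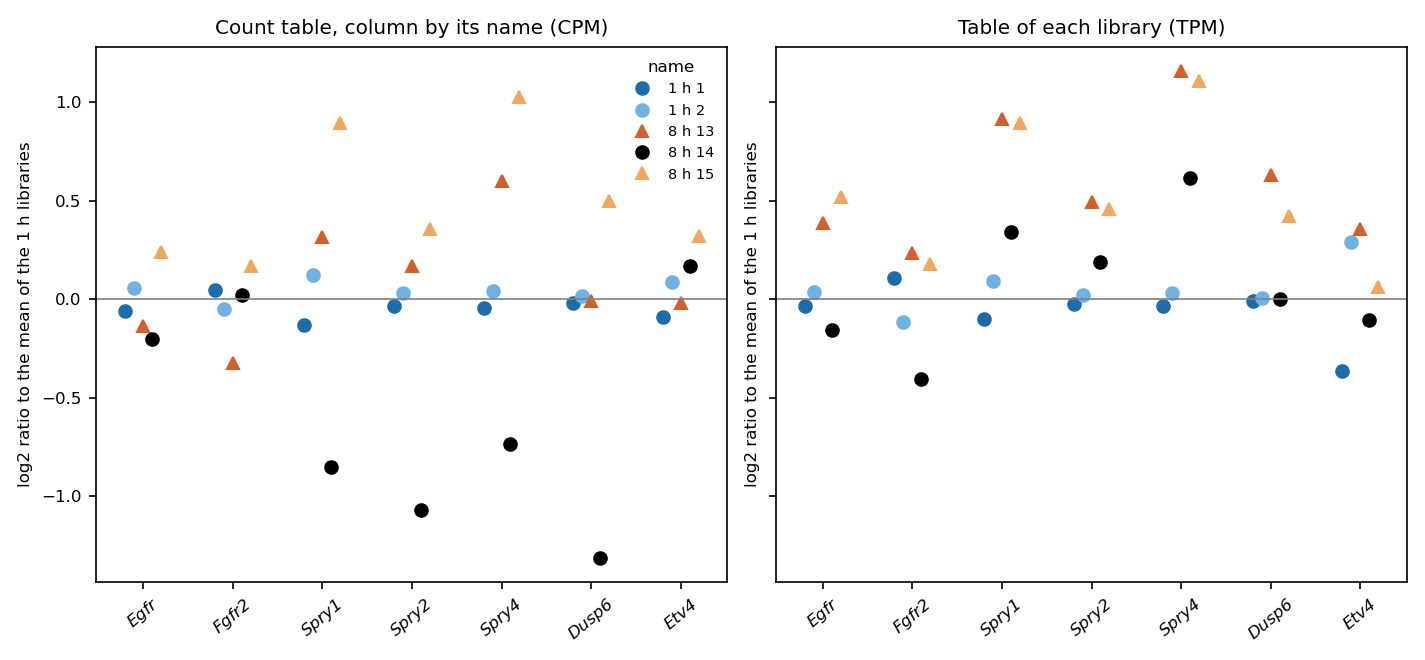
Log2 ratio to the mean of the 1 h libraries (vertical axis) for the 7 genes of the count table, by column name in CPM (left) and in the TPM table of each library (right), with 1 marker per library and triangles for identifier series 2. The column named 8 h replicate 14 (black circles, left) lies at -0.73 to -1.31 for Spry1, Spry2, Spry4 and Dusp6. The table deposited for replicate 14 (black circles, right) lies at 0.00 to 0.61 for the same genes. That table matched the column named replicate 13 (79.1% of genes) and not the column of its own name (26.4%).

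By the names of the columns, 0 of 7 listed members were called by edgeR's quasi-likelihood test with Benjamini-Hochberg adjustment, as were 0 of 7590 genes (0%). At an unadjusted p under 0.05 it found 199 genes and 0 of 7 members, and DESeq2 called 0 genes and found 227 at that level. The log2 fold changes were 0.44 ± 0.46 (SE) for Spry4, 0.26 ± 0.45 for Spry1, -0.08 ± 0.39 for Spry2 and -0.12 ± 0.46 for Dusp6. Without the unmatched column they were 0.81 ± 0.16 for Spry4, 0.62 ± 0.21 for Spry1, 0.25 ± 0.11 for Spry2 and 0.25 ± 0.18 for Dusp6, all at adjusted p of at least 0.746. With the identifier series as a term, which sets the unmatched column against the 1 h columns, they were -0.77 ± 0.21 for Spry4, -0.89 ± 0.28 for Spry1, -1.10 ± 0.14 for Spry2 and -1.34 ± 0.24 for Dusp6, and these 4 of 7 members had an unadjusted p under 0.05 (adjusted p = 0.429 to 0.777), as had 5.78% of genes. Etv4 was 0.14 ± 0.13, Egfr -0.05 ± 0.15 and Fgfr2 -0.06 ± 0.16. None of the 7 was higher in all 8 h columns than in both 1 h columns, against 11.6% of the genes tested.

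The other genes of the pathway were read from 7 lists, and in the fit of all 5 libraries 0 genes of these lists were called in either direction, against 0.0433% of all genes. Without replicate 14, when times and series cannot be told apart, 5 were called, against 4.1% of all genes. They were 1 of 2 FGF ligands tested, 1 of 11 co-receptors and, among 18 ETS and ERK-responsive genes, 2 higher and 1 lower. None was called among the 6, 3, 24 and 16 genes tested in the other lists. The 5 genes were Fgf2 (1.31), Gpc5 (1.16), Egr1 (1.57) and Ets2 (1.06), which were higher, and Fosl1 (-1.06), which was lower and is named here after its value was seen. Of 11 EGF family ligands 6 reached a mean of 1 TPM. Hbegf, a membrane-bound ligand of EGFR, was by far the most abundant, with 174 and 131 TPM at 1 h, then 168, 180 and 175 TPM at 8 h. Tgfa followed with 18.1 and 19.0 TPM at 1 h, then 11.4, 18.3 and 12.2 TPM at 8 h. Areg had the largest log2 fold change of the list, -0.48 ± 0.43 (SE; adjusted p = 0.599), on levels of 0.458 to 2.79 TPM. With the series as a term Areg turned to 0.37, and Tgfa went from -0.41 to -0.01. The list had a median log2 fold change of -0.28.

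FGF ligands were scarce. Only Fgf1 and Fgf2 of 18 reached a mean of 1 TPM, and Fgf3, Fgf4, Fgf6, Fgf16, Fgf20 and Fgf21 were listed at 0 in all 5 libraries. Fgf1 had 8.38 and 8.67 TPM at 1 h, then 13.2, 12.6 and 10.8 TPM at 8 h. Fgf2, the gene of the factor that was added to the medium as protein, had 0.636 and 1.50 TPM at 1 h, then 3.59, 2.54 and 4.48 TPM at 8 h. Neither overlapped between the times, including replicate 14, with log2 fold changes of 0.47 ± 0.14 (SE; adjusted p = 0.345) and 1.14 ± 0.28 (adjusted p = 0.300). In the fit that holds the identifier series they were 0.52 and 0.81. In the count columns Fgf2 overlapped between the times, with 9.29 and 8.96 CPM at 1 h and 10.4, 8.91 and 14.1 CPM at 8 h, and its coverage in the TPM tables was only 0.0215 to 1.68.

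Among the other receptors of both families 3 of 5 reached 1 TPM. Fgfrl1, an FGF receptor without a kinase domain, had 21.9 and 29.0 TPM at 1 h, then 45.7, 22.2 and 42.0 TPM at 8 h, and Erbb4, a neuregulin receptor, had 17.5 and 17.3 TPM at 1 h, then 9.69, 16.0 and 12.3 TPM at 8 h. Fgfrl1 overlapped between the times and Erbb4 was lower at 8 h without overlap. Their log2 fold changes were 0.46 ± 0.32 (SE; adjusted p = 0.523) and -0.46 ± 0.21 (adjusted p = 0.420), and -0.17 and -0.12 with the series as a term. Of 15 co-receptors 11 reached 1 TPM, and the syndecans Sdc3 (mean 252 TPM) and Sdc4 led. Sdc4 had 90.1 and 88.3 TPM at 1 h, then 151, 89.3 and 148 TPM at 8 h, the same split by series as Dusp6, and the glypican Gpc5 had the largest log2 fold change (0.76 ± 0.41, SE; adjusted p = 0.453). Gpc5 was at -0.03, Sdc3 at -0.11 and Sdc4 at 0.00 once the series was a term. The median was 0.30 for the co-receptors and 0.28 for the other receptors.

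All 24 adaptors and members of the RAS-ERK cascade were expressed, among them Map2k2, which encodes the kinase MEK2 (111 and 124 TPM at 1 h, then 132, 109 and 111 TPM at 8 h). Their summed TPM was 1384 to 1471 in all 5 libraries, with a median log2 fold change of 0.05. The adaptor Shc1 (0.54 ± 0.16, SE; adjusted p = 0.343) and the ERK substrate Rps6ka3 (-0.42 ± 0.16, adjusted p = 0.396) had the largest log2 fold changes, which were 0.30 and -0.15 with the series as a term.

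Of 18 other feedback and negative regulators 16 were expressed, with a median log2 fold change of -0.02. Lrig1, a membrane protein that lowers EGFR levels, had the highest level of them, 299 and 297 TPM at 1 h, then 387, 303 and 361 TPM at 8 h, and Spred1 followed. The largest log2 fold changes belonged to Socs5 (0.55 ± 0.11, SE; adjusted p = 0.262) and to the ERK phosphatase gene Dusp7 (0.52 ± 0.13, adjusted p = 0.300). Dusp7 had 11.4 and 13.1 TPM at 1 h, then 17.6, 19.4 and 17.0 TPM at 8 h, so that replicate 14 was its highest library, unlike for Dusp6. Socs5 had 26.0 and 23.6 TPM at 1 h, then 38.3, 35.9 and 35.8 TPM at 8 h, without overlap. With the series as a term Socs5 was at 0.52, Dusp7 at 0.63 and Lrig1 at 0.02.

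All 18 further ETS and ERK-responsive genes were expressed, with a median log2 fold change of 0.13. Ccnd1, the gene of cyclin D1, was the most abundant gene of all 7 lists, with 1191 and 1189 TPM at 1 h, then 1915, 1387 and 1862 TPM at 8 h (0.52 ± 0.16, SE; adjusted p = 0.365). Cic, which encodes Capicua, had a mean of 94.8 TPM. The immediate early gene Egr1 had 43.8 and 54.7 TPM at 1 h, then 128, 53.0 and 171 TPM at 8 h (1.09 ± 0.47, SE; adjusted p = 0.409), and Ets2 had 22.0 and 23.2 TPM at 1 h, then 47.4, 23.2 and 49.2 TPM at 8 h (0.72 ± 0.33, adjusted p = 0.419). In both the libraries of series 2 stood apart and replicate 14 lay at the 1 h level. With the series as a term Egr1 was at 0.11, Ets2 at 0.04 and Ccnd1 at 0.22.

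The genes whose profile over the 5 libraries was most like a member were sought among 10275 genes with a mean of at least 5 TPM, by the root mean square difference of log2(TPM + 1) after centring. For Egfr these were Il6st (0.00952), Mgat5 (0.0245) and Nrep (0.0289). For Dusp6 they were Gpr180 (0.0306), Cmtm3 (0.0308) and B4galnt1 (0.0315). The member nearest to Dusp6 was Spry2 (0.103), at rank 386 of these genes, and the member nearest to Egfr was Dusp6 (0.122), at rank 812. These are descriptions over 5 points that share depth and series.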

How the data were processed

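RNA-seq was done by the authors on stranded poly-A libraries read from both ends. They aligned reads to GRCm38 within the nf-core/rnaseq workflow. The deposited count table holds unnormalized whole read counts, after a filter that the sources used here do not give (0 value columns unassigned). For each library the authors deposited TPM, FPKM and per-base coverage per gene, in a layout like that of StringTie, by a tool that those sources do not name. Rows of the same gene identifier were added up. The test was limma 3.58.1 with an intensity trend (R 4.3.3) on log2(TPM + 1), on all 5 libraries, over 13870 genes with a mean of at least 1 TPM, two-sided with Benjamini-Hochberg adjustment. That scale understates changes of low genes. Calls needed an adjusted p no higher than 0.05 together with a log2 fold change beyond 1 in either direction. Counts were tested with edgeR 4.0.16 (quasi-likelihood, TMM, filterByExpr) and, as an alternative, DESeq2 1.42.0 with alpha 0.1. The p-values measure the spread between these libraries. Other alternatives were the FPKM column, a pseudocount of 0.1, no filter, other scaling, the identifier series, and leaving out each library. Scripts were tested on simulated data. Members and lists were chosen with earlier results of these data known. Listed genes are named if they have 1 of the 2 highest means or largest fold changes of their list, are called, or are at 0 in every library, and the 3 genes most like Egfr and Dusp6 in profile leave out symbols of unnamed transcripts. A gene that this rule names is not reported here. Promoters are from RefSeq.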

Additional observations from a re-analysis of the deposited data

How the results depend on the processing

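No paired analysis was possible because the groups share no replicate number. The number of genes called from TPM, 6, was 0 with no filter and 19 with the identifier series as a term, and 0 to 568 on leaving out each library (568 without 8 h replicate 14, 1 without replicate 13, 0 without any other). Members called were 0 to 1. Leaving out each library gave log2 fold changes of 0.12 to 0.45 for Egfr, 0.025 to 0.24 for Fgfr1 (lowest without replicate 13), -0.10 to 0.20 for Fgfr2, -0.27 to 0.024 for Fgfr3, -0.18 to 0.47 for Etv4 and -0.0026 to 0.12 for Etv5, and in counts -0.19 to 0.049 for Egfr, -0.17 to 0.066 for Fgfr2, -0.16 to 0.62 for Spry1, -0.33 to 0.25 for Spry2, 0.071 to 0.81 for Spry4 (lowest without replicate 15) and -0.53 to 0.25 for Dusp6. The sign also changed with median-ratio scaling for Fgfr2 (-0.10) and Etv5 (-0.056), in FPKM for Fgfr2 (-0.049) and Etv5 (-0.0061), and with the series as a term, or series 1 alone, for Egfr (-0.15), Fgfr1 (-0.047), Fgfr2 (-0.38), Etv4 (-0.067) and Etv5 (-0.056). In counts it changed with the series as a term for Spry1 (-0.89) and Spry4 (-0.77), and the value was -1.10 for Spry2 and -1.34 for Dusp6. Spry1, Spry2 and Spry4 kept a positive sign under every alternative of the TPM fit. Dusp6 ranged from 0.0014 ± 0.12 (SE) with the series as a term, which is no difference, to 0.52 without replicate 14.

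In series 1 alone the 8 h minus 1 h difference in share was 1.60 percentage points for Fgfr1, -2.57 for Fgfr2, 0.974 for Fgfr3, 0.483 for Spry1, -4.76 for Spry2 and 4.28 for Spry4, and the summed TPM differed by -10.6 for the FGF receptors (11.2 over all libraries, -1.86 without replicate 13) and 73.5 for the sprouty genes (157 over all libraries). The median log2 fold change of the EGF family ligands was -0.39 with pseudocount 0.1, -0.050 with no filter, -0.019 with the series as a term or series 1 alone, and -0.39 to -0.14 on leaving out each library. That of the FGF ligands was 1.11 with pseudocount 0.1, 0.030 with no filter and 0.56 in FPKM. With the series as a term or series 1 alone it was -0.12 for the other receptors and -0.028 for the co-receptors. Shares of coverage were added after seeing the data. The cause of these shifts was not tested. Column totals leave out genes that the count table does not list, and the TPM tables give no read numbers, so the depth behind Fgfr1, Fgfr3 and Etv5 is unknown apart from coverage.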
